A study of Mus musculus with 6 samples.

Results

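The 9 genes described here, Egfr, Erbb2, Met, Ret, Alk, Ros1, Fgfr1, Braf and Pik3ca, encode kinases that are mutated, amplified or fused in human lung adenocarcinoma. They were taken as a fixed list of 9 of the 21887 protein-coding genes on chromosomes 1 to 19, X and Y. A peak was counted for a gene when it overlapped the RefSeq span in GRCm38.p6 (the coordinates of mm10) plus or minus 2 kb. The list holds no Ras gene, and Ras genes were not analysed here. Methylated DNA of mouse lung had been captured with a methyl-binding-domain protein and sequenced (MBD-seq), and each library had its own list of peaks, that is, places where methylated fragments were enriched. The 3 transgenic lungs carried a deletion variant of the DNA methyltransferase DNMT3B (ΔDNMT3B4-del) under the SPC promoter (genotype label SPC-DNMTdelta3B/DG, spelled SPC-DNMTdeltaB/DG for replicate 2), and the 3 wild-type lungs carried no transgene. All 6 samples were lung tissue of mice aged 12 to 16 months. The SPC promoter belongs to the surfactant protein C gene and is active in alveolar type 2 cells, so that many cells of lung tissue are of types in which that promoter is not known to be active. Several founder lines were bred, and the labels do not give the line, sex or strain of each animal, nor do they state that each library came from a separate animal. The p-values therefore measure the spread between these libraries, which may in part be technical. In bulk lung DNA, a different mix of cells and a different methylation within 1 cell type cannot be told apart.

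Receptor tyrosine kinases sit in the cell membrane, bind a growth factor outside and phosphorylate tyrosines inside, which recruits adaptors that switch on Ras. Ras passes the signal to BRAF, the first kinase of the MAPK cascade, and to PI3K, whose catalytic subunit p110alpha is encoded by Pik3ca. In a vertebrate genome most CpG sites inside transcribed genes are methylated, while promoters rich in CpG sites are commonly free of methylation. MBD capture needs several methylated CpG sites close together, so that a stretch with few CpG sites gives little signal whether it is methylated or not.

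The promoters of Met and Ros1 mark the ends of the range of CpG content among the 7 members with a promoter in the RefSeq set (GRCm38.p6), which are all but Ret and Fgfr1. Each sequence runs from 250 bases before to 50 bases after the transcription start, 5′ to 3′ on the gene's strand, and the capitals mark each CpG.
Met: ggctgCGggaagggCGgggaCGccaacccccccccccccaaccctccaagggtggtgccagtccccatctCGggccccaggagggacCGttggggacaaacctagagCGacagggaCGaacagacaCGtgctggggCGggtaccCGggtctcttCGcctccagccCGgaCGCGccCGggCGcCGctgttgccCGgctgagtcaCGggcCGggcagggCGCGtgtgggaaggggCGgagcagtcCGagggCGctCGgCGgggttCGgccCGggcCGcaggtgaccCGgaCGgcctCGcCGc
Ros1: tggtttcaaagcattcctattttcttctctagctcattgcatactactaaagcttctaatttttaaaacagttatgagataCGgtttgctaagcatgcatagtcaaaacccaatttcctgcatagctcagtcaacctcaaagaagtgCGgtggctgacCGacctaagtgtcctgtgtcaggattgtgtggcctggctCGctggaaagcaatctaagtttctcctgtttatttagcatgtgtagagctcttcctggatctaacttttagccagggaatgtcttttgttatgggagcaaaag
The Met promoter (chr6:17463707-17464006, plus strand) held 34 CpG sites in 300 bases, and the Ros1 promoter (chr10:52195195-52195494, minus strand) held 4. Between them lay Braf with 30, Alk with 28, Erbb2 with 21, Pik3ca with 20 and Egfr with 15, against a median of 7 over the 32851 promoters of the table. No peak of any of the 6 libraries overlapped any of these 7 promoters. Over all 32851 promoters, 7.90% overlapped a peak in at least 1 library. The share was 19.5% among promoters with 6 to 10 CpG sites, 12.6% with 11 to 20 and 3.92% with 21 or more, so that a promoter without a peak was the common case at each CpG content.

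**Figure D1:**
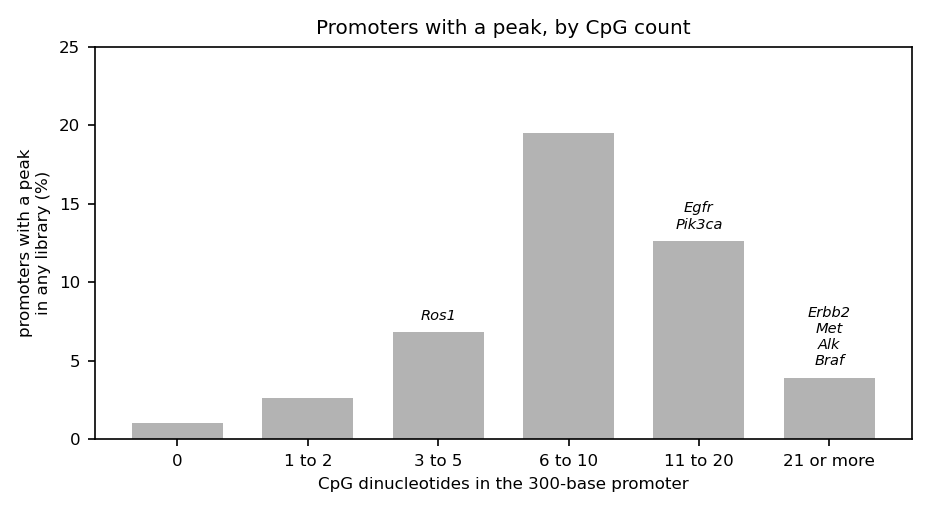
Bars give the percentage of RefSeq promoters (300 bases each) that overlapped a peak in at least 1 of the 6 libraries, by the number of CpG dinucleotides in the promoter. The 7 member promoters are written above the bar of their CpG count, from 4 in Ros1 to 34 in Met, and none of the 7 overlapped a peak.

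The libraries differed in the length of their peak lists, which stands in for the unknown read depth only in part. The transgenic lists held 78952 to 120349 peaks and the wild-type lists 30637 to 111208. Wild-type replicate 2 had a list as long as those of transgenic replicates 1 and 2, whereas the list of wild-type replicate 3 was the shortest, and its median peak was 197 bp wide against 376 to 460 bp in the other 5. The share of peaks on chromosome Y was 1.67% and 1.86% for transgenic replicates 1 and 3 and between 0.599% and 0.911% for the remaining 4 lists. All 9 members are autosomal, and the part of list length or of these chromosome Y shares in the results below was not tested.

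Across the 9 genes, the peaks lay mostly in the gene bodies, which also make up most of the sequence. Within 1 kb of either end of any member there was no peak in any library. Within 2 kb of the transcription start, the 7 members of known strand again had no peak in any library. Here and below, the start is the 5′ edge of the RefSeq span. It can differ from the start used for the promoter sequences: the span of Met begins at chr6:17463349, before its promoter at chr6:17463707. Of 17492 protein-coding genes of known strand, 26.0% had a peak within 2 kb of the start in at least 1 library, so that a gene without one was the common case and the 0 of 7 is not particular to these genes. Within 2 kb of either end, peaks were found at 3 of the 9 genes. By library, 2, 2 and 3 of the 9 had one in transgenic replicates 1, 2 and 3. In wild-type replicates 1, 2 and 3, the counts were 1, 3 and 0 of 9. Over all protein-coding genes the shares were 42.5%, 41.7% and 30.0% in the transgenic libraries, against 23.4%, 41.2% and 10.4% in the wild-type libraries. For the 1 kb ends, the share over all genes was not taken. At the 3′ end of Alk there was 1 peak in transgenic replicates 2 and 3 and in wild-type replicates 1 and 2. These Alk peaks lay beyond the gene, in a region centred 737.561 kb from the start of the 735.715 kb span. At the 3′ end of Pik3ca there was 1 peak in all 3 transgenic libraries and in wild-type replicate 2. At the higher-coordinate end of Fgfr1 there was 1 peak in transgenic replicates 1 and 3 and in wild-type replicate 2.

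The density of peaks at the ends (both ends plus or minus 2 kb) was set against that of the rest of the gene in the same library. In Erbb2 the ends had 0 and the body 16.5 ± 8.81 peaks per 100 kb (SD, n = 6 libraries), and the ends were lower in 6 of 6 libraries (two-sided exact sign-flip permutation test, p = 0.0312, the smallest this test can give, adjusted p = 0.0703 over the 9 members). Fgfr1 (6.25 ± 6.84 at the ends and 16.1 ± 7.53 peaks per 100 kb in the body), Ret (0 and 9.13 ± 5.52) and Ros1 (0 and 2.50 ± 0.352) gave the same exact p and adjusted p (SD, n = 6). In Erbb2, Ret and Ros1 the ends held no peak in any library and the body held a peak in every library. Their p therefore restates these counts and adds nothing to them. The other direction was seen in Alk, with 8.33 ± 6.45 at the ends and 3.17 ± 1.54 peaks per 100 kb in the body, and in Pik3ca, with 8.33 ± 6.45 and 3.33 ± 1.80 (exact p = 0.125 for both, SD, n = 6). All peaks at the ends of Alk lay outside its span. With 5 kb ends, the ends of Pik3ca exceeded its body by 10.55 peaks per 100 kb (exact sign-flip permutation p = 0.0312, adjusted p = 0.113). At that width, ends minus body was -3.70 peaks per 100 kb in Erbb2 (exact sign-flip permutation p = 0.3125, adjusted p = 0.352). By the same permutation test it was -6.48 in Ret and -5.74 in Fgfr1 (p = 0.0625 for both), and -2.61 in Ros1 (p = 0.0312). With each list cut to its 30637 highest-scoring peaks and 2 kb ends, the Erbb2 difference was -0.785 peaks per 100 kb. In none of the 9 was the adjusted p under 0.05 with 2 kb windows, while 4 had an unadjusted exact p under 0.05. With 1 kb windows, which held no peak, the test gives its smallest p for any gene with a body peak in every library, so that its result restates the count of 0, and the differences of Alk and Pik3ca changed sign. The ends are short: at the body's own density, the 6 libraries together would hold 7.91 peaks at the ends of Erbb2 and 4.38 at those of Ret, but 1.80 at those of Met, 1.20 at those of Ros1, 0.405 at those of Braf and 0.355 at those of Egfr, so that a count of 0 at the ends of these 4 carries little information. The 6 libraries share the same gene sequence, so that they are replicates of the measurement and not of the gene.

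**Figure D2:**
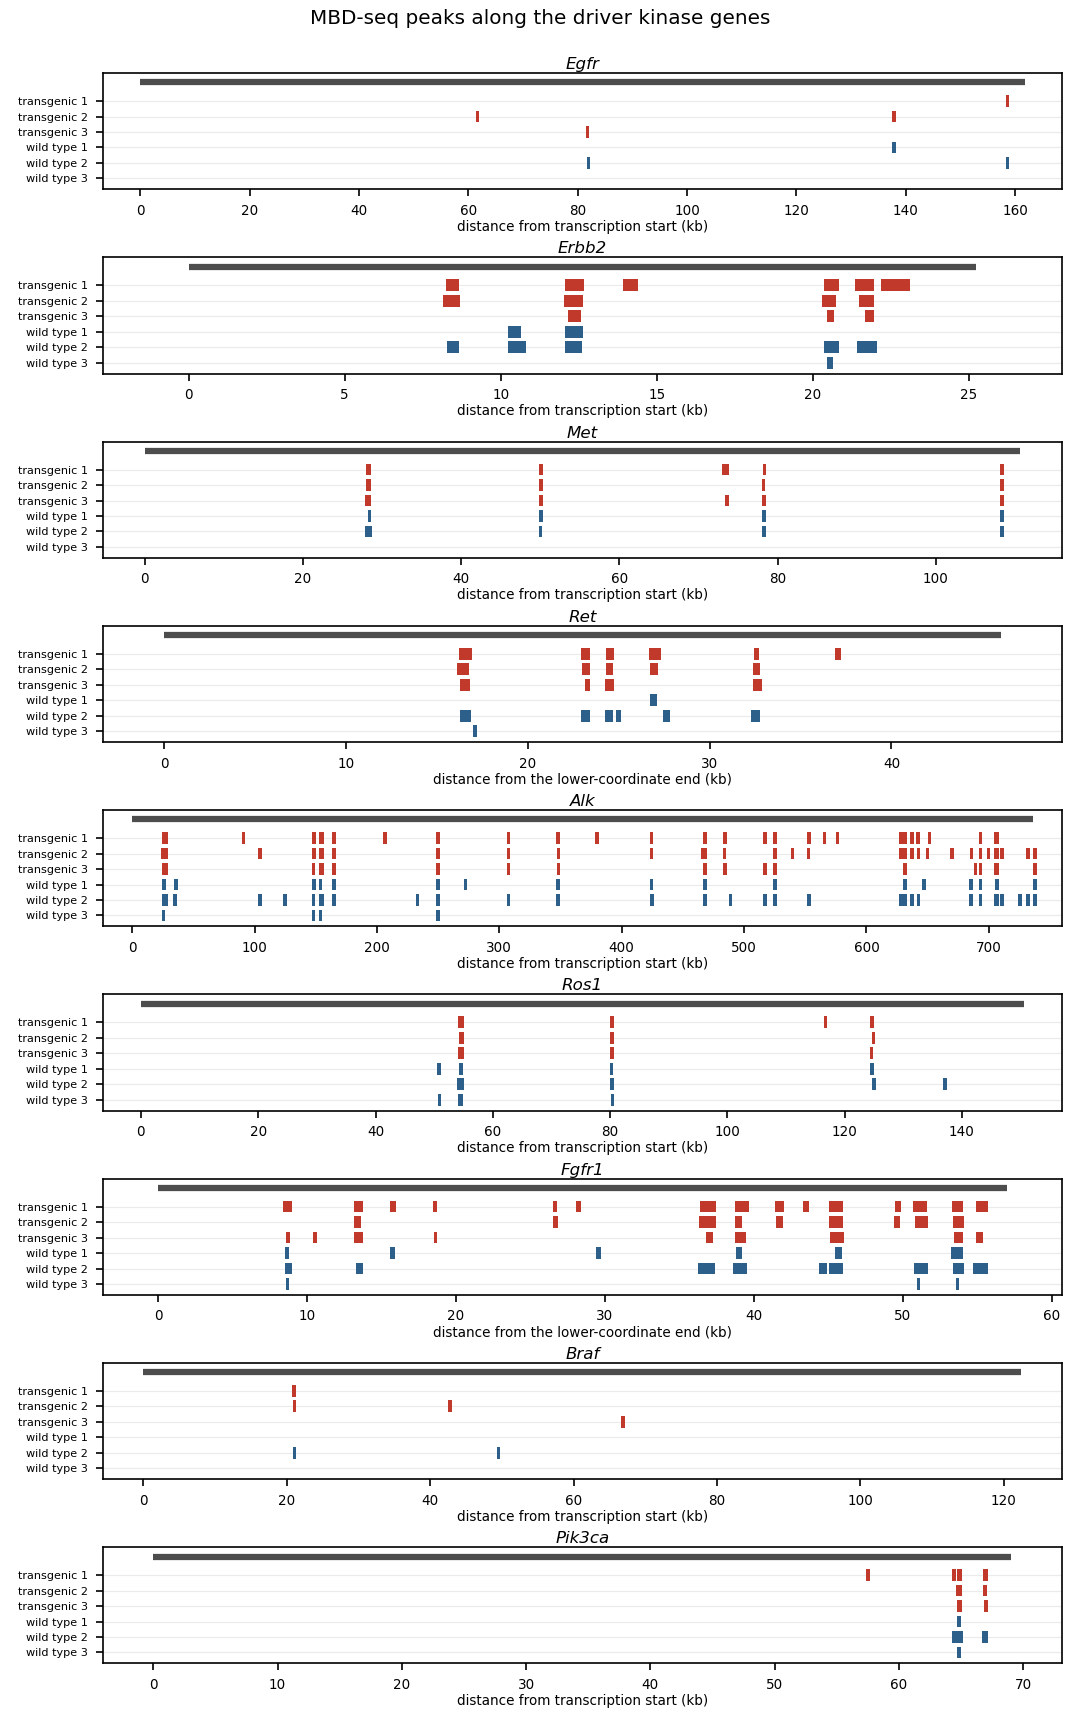
Each panel shows 1 gene (grey bar, to scale along the x axis in kb) with the peaks of the 3 transgenic libraries (red, upper rows) and the 3 wild-type libraries (blue, lower rows). Peaks narrower than 0.4% of the gene are drawn at that width. The first 8.14 kb of Erbb2, 25.0 kb of Alk and 57.4 kb of Pik3ca held no peak in any library, and many peaks stood one above another across libraries of both groups.

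By peaks per 100 kb of gene window, a scale that allows genes of different length to be compared, Fgfr1 was the most densely captured member with 13.9 ± 6.54 and Erbb2 the next with 12.0 ± 6.40 (SD, n = 6 libraries). Ret had 7.67 ± 4.63, Met 3.49 ± 1.83, Alk 3.22 ± 1.55, Pik3ca 2.97 ± 1.60 and Ros1 2.37 ± 0.334 peaks per 100 kb. Braf with 0.791 ± 0.707 and Egfr with 0.704 ± 0.454 were the lowest. The median member had 3.22 peaks per 100 kb, against a median of 3.99 over the 21887 protein-coding genes. By library, the direction differed. The member median was the lower in transgenic replicates 1 and 2 (4.36 against 5.69, 3.49 against 5.42) and wild-type replicate 2 (4.36 against 5.16). It was the higher in transgenic replicate 3 (2.84 against 2.73) and in wild-type replicates 1 and 3 (2.59 against 1.37, 1.37 against 0). A lower density than that of Fgfr1 was found in 91.6% of these genes, and a lower one than that of Egfr in 26.6%. Of the 8 pairs of neighbours in this order, Erbb2 exceeded Ret and Ros1 exceeded Braf in 6 of 6 libraries each (difference 4.31 and 1.58 peaks per 100 kb, two-sided exact sign-flip permutation p = 0.0312, adjusted p = 0.125 over the 8 pairs). No pair of neighbours had an adjusted p under 0.05, and in the other 6 pairs the unadjusted exact p was 0.0625 or more, so that neighbours such as Met and Alk or Braf and Egfr were not told apart by this test. When each list was cut to its 30637 highest-scoring peaks, the order became Fgfr1, Ros1, Met, Ret, Pik3ca, Alk, Erbb2, Egfr and Braf.

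**Figure D3:**
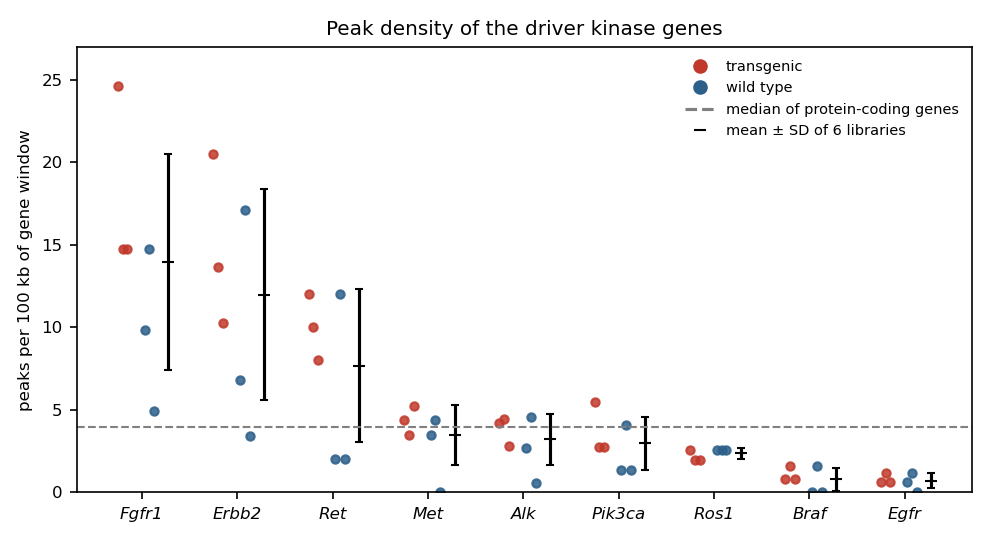
Peaks per 100 kb of gene window for each member in each library (red, transgenic; blue, wild type), with the mean and SD of the 6 libraries in black and the median of all protein-coding genes as a dashed line at 3.99. Fgfr1 averaged 13.9 and Erbb2 12.0 peaks per 100 kb, and Braf and Egfr averaged under 1.

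Egfr encodes the receptor of epidermal growth factor, and its gene (chr11:16752203-16913907) was among the 2 most sparsely captured. It had 1, 2 and 1 peaks in transgenic replicates 1, 2 and 3, against 1, 2 and 0 in wild-type replicates 1, 2 and 3, and the groups overlapped (difference 0.333, exact permutation p = 1 with n = 3 per group). These peaks fell into 4 regions, and none was found in more than 2 lists. The region nearest the 3′ end (chr11:16910600-16910986) had a peak score of 128 in transgenic replicate 1 and 74.5 in wild-type replicate 2. Peak scores are the authors' own, begin at 50 in every list and are not scaled between libraries.

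Erbb2 encodes the co-receptor HER2, which binds no ligand itself and pairs with other ErbB receptors, and it spans only 25.2 kb (chr11:98412484-98437716). Its counts were 6, 4 and 3 in the transgenic libraries, against 2, 5 and 1 in the wild-type libraries (difference 1.67, two-sided exact permutation p = 0.40). The groups overlapped because wild-type replicate 2 exceeded transgenic replicates 2 and 3. Among its 7 regions, 2 were found in 5 lists. The region at 12.3 kb from the start (chr11:98424510-98425147) had scores of 143, 62.7 and 58.6 in the transgenic lists, against 54.6 and 88.7 in wild-type replicates 1 and 2 and no peak in replicate 3. A region at 20.6 kb (chr11:98432779-98433340) scored 173, 120 and 59.2 in the transgenic lists, against 103 and 67.6 in wild-type replicates 2 and 3 and no peak in replicate 1. Unlike Egfr, Erbb2 therefore had places of capture shared by most lungs of both groups.

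Met, the receptor of hepatocyte growth factor (chr6:17463349-17573980), showed the same places in nearly every lung. It had 5, 4 and 6 peaks in the transgenic libraries, against 4, 5 and 0 in the wild-type libraries (difference 2, two-sided exact permutation p = 0.50). The groups overlapped, and wild-type replicate 3 was the only library with none. Of its 5 regions, 4 were found in all 5 libraries other than wild-type replicate 3, at 28.3, 50.03, 78.3 and 108 kb from the start of the span. The region at 28.3 kb held more than 1 peak in transgenic replicate 3 and in wild-type replicate 2. The region at 50.03 kb (chr6:17513134-17513631) scored 299, 249 and 91.0 in the transgenic lists, against 89.8 and 103 in wild-type replicates 1 and 2. The last of the 4 (chr6:17571415-17571968), close to the 3′ end, scored 370, 169 and 98.8 in the transgenic lists, against 78.4 and 122 in wild-type replicates 1 and 2.

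Ret encodes the signalling receptor for ligands of the GDNF family, which bind it together with a co-receptor (chr6:118151748-118197744). Counts of 6, 5 and 4 in the transgenic libraries stood against 1, 6 and 1 in the wild-type libraries (difference 2.33, two-sided exact permutation p = 0.40). Wild-type replicates 1 and 3 lay below every transgenic library, and wild-type replicate 2 equalled the highest. Of 9 regions in Ret none was found in 5 or more lists, and 4 were found in all 3 transgenic lists and in wild-type replicate 2. The first of these (chr6:118167854-118168700) scored 255, 129 and 147 in the transgenic lists and 91.9 in wild-type replicate 2.

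Alk, the receptor of the ALKAL cytokines and the longest member at 736 kb (chr17:71868988-72604702), held 143 of the 310 peaks counted over the 9 genes and 6 libraries. It had 31, 33 and 21 peaks in the transgenic libraries, against 20, 34 and 4 in the wild-type libraries (difference 9, two-sided exact permutation p = 0.60). The highest and the lowest count both came from wild-type lungs, from replicates 2 and 3. In its 50 regions 4 were found in all 6 lists and 8 more in all but wild-type replicate 3. The strongest (chr17:72439221-72440149, 165 kb from the start) scored 961, 647 and 310 in the transgenic lists, against 261 and 475 in wild-type replicates 1 and 2. Its score was exceeded by that of 1.61%, 2.23% and 5.04% of peaks in the transgenic lists and of 1.36% and 3.15% of peaks in wild-type replicates 1 and 2. A neighbouring region (chr17:72450242-72451310) was found in all 6 lists, with scores of 496, 350 and 157 in the transgenic lists, against 136, 248 and 120 in the wild-type lists. Alk also held the only region of the 9 genes called in every transgenic list and absent from the wild-type ones (chr17:72120290-72120708, 484 kb from the start), with scores of 56.5, 80.7 and 64.7, near the lowest listed score of 50.

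Ros1 encodes a receptor whose ligand in mouse is NELL2 (chr10:52044863-52195398), and its counts varied least across the libraries. It had 4, 3 and 3 peaks in the transgenic libraries, against 4, 4 and 4 in the wild-type libraries (difference -0.67, two-sided exact permutation p = 0.40). In wild-type replicate 3, the peaks at 54.346 to 54.541 kb and at 54.555 to 54.739 kb from the start lay in the same merged region. Ros1 was the only member whose transgenic mean lay below the wild-type mean, with groups that touched at 4. In covered sequence the difference had the other sign, with 2.03 ± 0.194 kb in transgenic and 1.53 ± 0.770 kb in wild-type lungs (SD, n = 3 each). Of its 6 regions, 2 were found in all 6 lists. The region at 54.5 kb from the start (chr10:52140340-52141432) scored 746, 665 and 317 in the transgenic lists, against 222, 493 and 77.3 in the wild-type lists. Its score was exceeded by 3.49%, 2.05% and 4.72% of peaks in the transgenic lists, against 3.06%, 2.85% and 39.2% in the wild-type lists. A region at 80.3 kb (chr10:52114649-52115450) scored 631, 512 and 274 in the transgenic lists, against 58.2, 414 and 104 in the wild-type lists. This second region was exceeded by 5.02%, 4.01% and 6.82% of peaks in the transgenic lists, against 82.1%, 4.50% and 15.5% in the wild-type lists. The region at 54.5 kb thus ranked high in every list except that of wild-type replicate 3. The region at 80.3 kb ranked lowest in wild-type replicate 1, followed by wild-type replicate 3.

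Fgfr1, a receptor of fibroblast growth factors (chr8:25518759-25575718), had the largest count after Alk. Its libraries had 15, 9 and 9 peaks in the transgenic group, against 6, 9 and 3 in the wild-type group (difference 5, two-sided exact permutation p = 0.30, the smallest of the 9 members). The groups met at 9, the count of transgenic replicates 2 and 3 and of wild-type replicate 2. Of 18 regions, 1 was found in all 6 lists (chr8:25571992-25572839), with scores of 266, 122 and 134 in the transgenic lists, against 57.3, 165 and 57.0 in the wild-type lists. Another (chr8:25527170-25527778) was found in all 3 wild-type lists, with scores of 72.2, 214 and 71.8, and in transgenic replicates 1 and 3, with scores of 236 and 112. Covered sequence in Fgfr1 was 9.51, 5.87 and 4.58 kb in the transgenic libraries, against 2.67, 7.11 and 0.604 kb in the wild-type libraries.

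Braf encodes the kinase that Ras activates (chr6:39603231-39725658), and it was captured as sparsely as Egfr. It had 1, 2 and 1 peaks in the transgenic libraries, against 0, 2 and 0 in the wild-type libraries (difference 0.667, two-sided exact permutation p = 0.60). The groups overlapped through wild-type replicate 2. Of 4 regions, 3 were found in a single list. The region at 21.1 kb from the start (chr6:39704415-39704760) was found in 3 lists, with scores of 169 and 53.4 in transgenic replicates 1 and 2 and of 67.3 in wild-type replicate 2.

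Pik3ca (chr3:32397065-32466112) carried all of its peaks near the 3′ end. It had 4, 2 and 2 peaks in the transgenic libraries, against 1, 3 and 1 in the wild-type libraries (difference 1, two-sided exact permutation p = 0.50), and the groups overlapped. All 13 peaks lay beyond the midpoint of the gene, none of them closer to the start than 57.4 kb. One region (chr3:32461663-32462207, 64.9 kb from the start) was found in all 6 lists, with scores of 237, 276 and 149 in the transgenic lists, against 77.3, 109 and 63.0 in the wild-type lists. Among the other members of known strand the part beyond the midpoint held 73 of 139 peaks inside Alk, 12 of 24 inside Met, 11 of 21 inside Erbb2, 13 of 22 inside Ros1, 6 of 7 inside Egfr and 1 of 6 inside Braf, so that peaks toward the 3′ end were not common to the 9 genes.

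**Figure D4:**
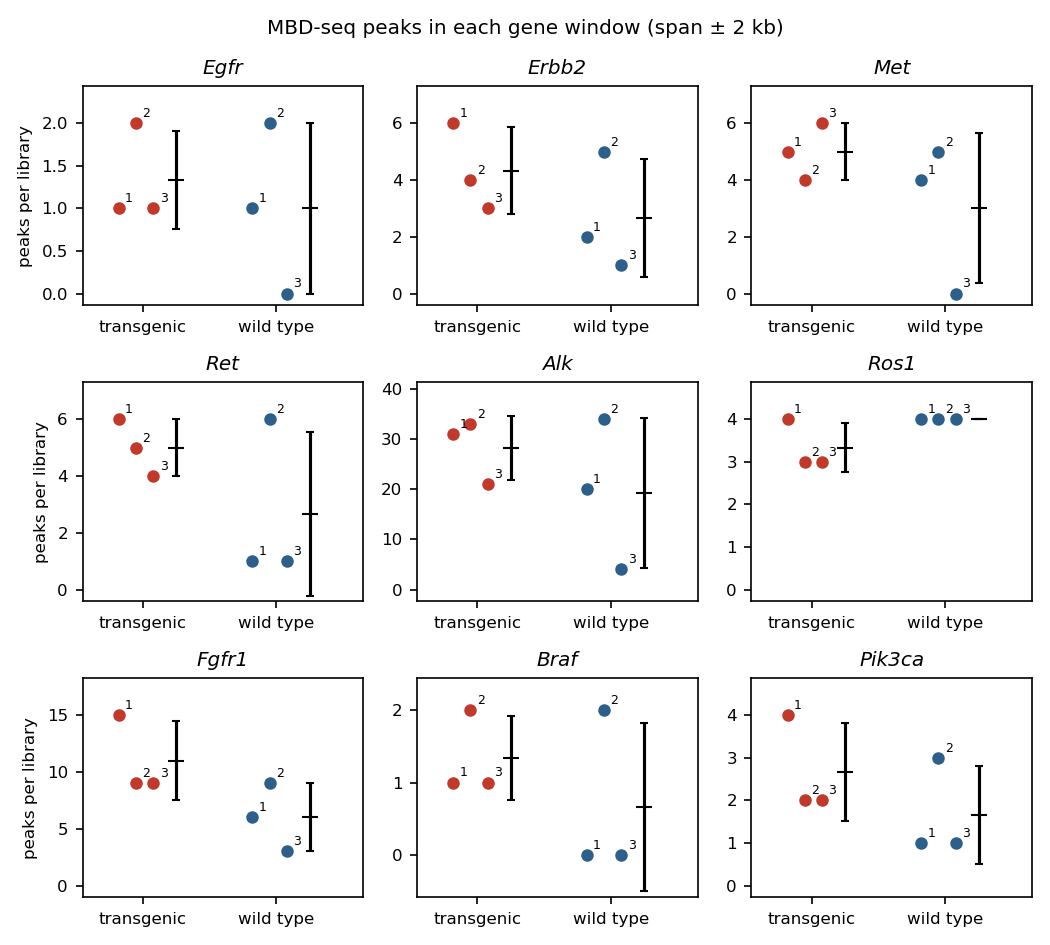
Number of peaks in each gene window (span plus or minus 2 kb) in the 3 transgenic (red) and the 3 wild-type (blue) libraries, with the replicate number beside each point and the group mean and SD in black. The axes differ between panels. In every panel the groups overlap or meet, and wild-type replicate 2 lies within the range of the transgenic values or, in Alk, above it.

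Between the groups, no member passed the test, which cannot show that a difference lies within the spread between libraries. The difference in Fgfr1, 5 peaks, was larger than the SD of either group, 3.46 in transgenic and 3 in wild-type libraries. With equal numbers of top-scoring peaks per list, the Fgfr1 difference fell to 0.333 peaks. Scaled to list length it was 0.1245 per 10000 peaks (two-sided exact permutation p = 0.50). The difference of 5 peaks is therefore not separated from the difference in list length. The 9 genes together held 73, 64 and 50 peaks in the transgenic libraries, against 39, 70 and 14 in the wild-type libraries, or 62.3 ± 11.6 and 41.0 ± 28.1 (SD, n = 3 each). Their sum tracked the length of the list: it was 6.07, 5.50 and 6.33 per 10000 peaks in the transgenic lists, against 6.49, 6.29 and 4.57 in the wild-type lists. None of the 9 members had all 3 transgenic counts above all 3 wild-type counts, and none had all below. Over the 21887 protein-coding genes these shares were 2.46% and 0.0183%, so that 0 of 9 is close to what other genes showed. With 3 libraries per group the exact permutation test cannot go below p = 0.10, and with all peaks and all 6 libraries no member reached that value. Per length, the pooled density of the 9 members was 4.12 ± 0.765 in transgenic and 2.71 ± 1.85 peaks per 100 kb in wild-type libraries (SD, n = 3 each), a difference of 1.41. Over all protein-coding genes the pooled density was 5.05 ± 1.23 and 3.11 ± 2.09 peaks per 100 kb (SD, n = 3 each), a difference of 1.94. The median difference in counts per gene, which grow with gene length, was 1.67 peaks over the members and 0.333 over all protein-coding genes. With windows of 5 kb, the count of members with transgenic above wild-type counts was still 0 of 9, against 2.83% of all protein-coding genes.

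The absence of non-overlapping groups rested on wild-type replicate 2. Without it, 6 members (Erbb2, Ret, Alk, Fgfr1, Braf and Pik3ca) had transgenic counts above both other wild-type counts, and so did 27.1% of all protein-coding genes. Without wild-type replicate 2 the sum over the members differed by 35.8 peaks in place of 21.3, and it differed by 7.83 without wild-type replicate 3. With 30637 top-scoring peaks per list, the sum differed by 2.33 peaks and 1 member had non-overlapping groups, against 0.722% of all protein-coding genes. That member was Alk, with 7, 7 and 7 peaks in the transgenic lists, against 4, 6 and 4 in the wild-type lists. With only those peaks kept that scored 96.3 (the median of all lists) or more, 1 member had non-overlapping groups, against 1.7% of all protein-coding genes. That was Ret, with 3, 2 and 1 peaks in the transgenic lists, against 0, 0 and 0 in the wild-type lists. The scores are not scaled between libraries, and their median was 127, 103 and 91.3 in the transgenic lists, against 75.3, 103 and 70.6 in the wild-type lists. With this cut, 372 of the 21887 genes had transgenic counts above and 0 had them below.

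Merging the 6 lists gave 107 regions in the 9 gene windows, of which 8 (7.48%) were found in all 6 lists and 26 (24.3%) in 5 or more. Over all 165995 merged regions of the series the shares were 10.9% and 25.9%. Of the 18 member regions found in exactly 5 lists, 16 were missing in wild-type replicate 3 alone. Capture in every transgenic library and none of the wild-type ones was seen at 1 of the 107 regions, the one in Alk, against 1.8% of all merged regions, and the opposite pattern at 0 of 107, against 0.0145%. Without wild-type replicate 2, which drops a condition of that definition, the first count was 13 of 97 regions, against 13.1% of all merged regions. A peak in at least 1 library of each group was found at 60 of the 107 regions (56.1%), against 62.6% over the series, with 28 of 50 in Alk, 9 of 18 in Fgfr1, 3 of 6 in Ros1 and 1 of 4 in Braf. A single list held 39 of the 107 regions (36.4%), against 28.4% over the series.

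In the authors' deposited table of 407 differential regions, 304 higher and 103 lower in transgenic lungs at an FDR of up to 0.0996, no region lay within 2 kb of any of the 9 genes. Among all protein-coding genes, 0.786% had such a region in their window, so that 0 of 9 is what most lists of this size would show. The count remained 0 of 9 at 50 kb. The nearest region of the authors' deposited table to a member lay 1465 kb from Met on chromosome 6 (log2 fold 0.63, FDR 0.00482). The nearest to Alk was 1638 kb away on chromosome 17 (log2 fold 0.49, FDR 0.0303), and the nearest to Pik3ca was 1988 kb away on chromosome 3 (log2 fold 0.55, FDR 0.0766), both in the authors' deposited table. For the other 6 genes the nearest region of the authors' deposited table was 4571 to 16508 kb away.

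The signalling partners of these kinases were described by 7 lists with 69 genes, all of which were matched. Non-overlapping groups were found in 2 of the 69, both with transgenic counts above the wild-type counts, against 2.46% of all protein-coding genes, and in 0 of 69 with transgenic counts below (two-sided exact permutation p = 0.10 for both genes, the smallest that can be reached, adjusted p = 1 over all genes). Both were receptors. Erbb4, an ErbB receptor of neuregulins, had 14, 15 and 13 peaks in the transgenic libraries, against 9, 12 and 8 in the wild-type libraries. Mst1r, a relative of Met, had 3, 4 and 3 peaks in the transgenic libraries, against 2, 2 and 1 in the wild-type libraries. Neither kept non-overlapping groups with 30637 top-scoring peaks per list, where 0 of 69 genes were higher and 2, Epha2 (1, 1 and 1 in transgenic lists, against 2, 2 and 3 in wild-type lists) and Pik3r1 (1, 0 and 1, against 2, 2 and 2), were lower in the transgenic lists, against 0.535% of all protein-coding genes. Without wild-type replicate 2 the higher count was 23 of 69, and without transgenic replicate 3 it was 19 of 69, against 27.1% and 14% of all protein-coding genes. Each drops a condition of the definition, and these shares are not matched for gene length.

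By role, the 15 other receptors had the highest median density with 10.2 peaks per 100 kb, among them Fgfr4 with 25.1 and Ntrk3 with 0.905. The PI3K arm followed with 7.17 (8 genes), the adaptors with 5.69 (9 genes), the fusion partners with 5.04 (6 genes), the MAPK cascade with 2.69 (5 genes), the ligands with 1.76 (18 genes) and the inhibitors with 1.08 (8 genes). These medians stand beside the 3.22 of the 9 members and the 3.99 of all protein-coding genes, and no test was made of them. Within 2 kb of the start, a peak in at least 1 library was found at 11 of the 56 partner genes of known strand, against 26.0% of all protein-coding genes. It was found at 5 of 12 receptors, 1 of 13 ligands, 2 of 9 adaptors, 0 of 2 genes of the MAPK cascade, 2 of 7 of the PI3K arm, 0 of 8 inhibitors and 1 of 5 fusion partners. The receptors were Fgfr3, Fgfr4, Mst1r, Ntrk2 and Ddr2, and the ligand was Fgf7, named here after their values were seen. Fgfr3 had the start peak in transgenic replicate 1 alone, Ntrk2 in wild-type replicate 2 alone, and Ddr2 in these 2 libraries. Fgfr4 and Mst1r had it in all 3 transgenic libraries and wild-type replicate 2, and Fgf7 in the same ones and wild-type replicate 1. None of the 69 genes had a region of the authors' deposited table in its window.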

How the data were processed

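MBD-seq peak lists of 6 mouse lungs, 3 transgenic and 3 wild type, were analysed, with groups and replicate numbers taken from the sample titles. Reads were aligned with Bowtie to mm10, and DiffBind and edgeR were used, all without a version, per the submitters' processing notes. The deposited peak names have the form written by MACS, whose settings no source used here gives. The deposited score of each peak is the authors' own. The authors' deposited table gives log2 concentrations, their log2 fold (transgenic minus wild type), and the p-value and FDR of 407 regions. Read depth is unknown, so a difference in capture or depth can remain in the counts.

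The span of each gene was taken from RefSeq (GRCm38.p6), in a table without strand, and strand and promoter sequences came from the RefSeq promoter set, which holds 7 of the 9 members. No genome sequence was used, so the CpG content of the peaks and exons were not resolved. Peaks on chromosomes 1 to 19, X and Y were used, with starts made 1-based. Regions were merged where peaks overlapped or touched.

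Counts of peaks per gene were compared by the difference of group means with a two-sided exact permutation test over the 6 libraries, with Benjamini-Hochberg adjustment over 21887 genes. All adjusted p were 1 for the members. Ends against bodies and neighbours in density were compared by exact sign-flip permutation tests over the 6 libraries. The count of genes with non-overlapping groups was tested on simulated data, where 195 of 200 planted genes among 21887 were recovered. The planted genes were long ones, and each received more extra peaks in every transgenic list than the difference of any member. The other simulated peaks were placed at random. The share recovered therefore does not give the sensitivity for differences of the size seen in the members. Alternatives were equal numbers of top-scoring peaks, a score minimum, other windows and measures, other backgrounds, a replicate block, and leaving out each library. Python 3.11.15, numpy 2.4.6 and pandas 2.3.3 were used.

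All 9 members are named. From the 7 partner lists, genes with non-overlapping groups were named, and from the merged regions those specific to a group and the most shared one of each gene, with exceptions said to be so. Any other region or partner gene printed here was picked with its values in view. The members, lists and tests were chosen with earlier results of these data known.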

Additional observations from a re-analysis of the deposited data

How the results depend on the processing

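No member reached an exact permutation p under 0.05 under any alternative, a level that 3 against 3 libraries cannot reach. The summed difference of 21.3 peaks was 2.33 with top-scoring peaks, 0.183 per 10000 peaks, 12.6 in covered kb, and 7.83 to 35.8 leaving out 1 library. Members with transgenic above wild-type counts, 0 of 9, were 1 with top-scoring peaks, 1 with the score minimum and 0 to 6 leaving out 1 library. Transgenic-specific regions, 1 in all, were 0 with top-scoring peaks, 2 with the score minimum, 2 with 5 kb windows and 1 to 13 leaving out 1 library. Wild-type-specific regions, 0 in all, were 0 to 1. With 1 kb ends, 6 members passed in place of 0, which the count of 0 at these ends fixes wherever every library has a body peak. Partner genes higher in transgenic lungs, 2 of 69, were 0 with top-scoring peaks and 2 to 23 leaving out 1 library, and lower ones were 2 with top-scoring peaks.

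Single values changed sign 19 times, none of them past its threshold with the settings of the report. A further 248 neither turned nor crossed their threshold, and some of these became 0. With top-scoring peaks this held for the differences between the groups in the counts of Egfr, Braf and Pik3ca. With 1 kb ends 4 more passed the threshold with the same sign. Peak differences became -0.33 in Erbb2 (top-scoring peaks), 0.667 in Ros1 (score minimum), 0.501 kb in Ros1 (covered kb), -0.00163 in Pik3ca (per 10000 peaks) and -0.17 to 0.833 in Egfr (leaving out 1 library). Ends minus bodies, in peaks per 100 kb, became -3.16 in Alk and -3.23 in Pik3ca (1 kb ends, both past the adjusted threshold), 1.12 in Egfr and 4.35 in Met (5 kb ends), and -1.02 in Pik3ca (top-scoring peaks). Density differences with top-scoring peaks became -0.43 for Erbb2 minus Ret, -0.018 for Ret minus Met, -0.12 for Alk minus Pik3ca and -0.60 for Pik3ca minus Ros1. With covered bases per kb they became -0.28 for Met minus Alk, -0.56 for Pik3ca minus Ros1 and -0.16 for Braf minus Egfr, and leaving out 1 library gave -0.038 to 0.564 for Alk minus Pik3ca and -0.16 to 0.515 for Met minus Alk. The cause was not tested.

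The correlation of same-numbered deviations was -0.061, 0.138 and 0.213, and that of differently numbered ones ran from -0.278 to 0.184. So few weak correlations cannot decide whether replicate numbers pair the libraries. With the replicate block the summed difference was 21.3 peaks, 0 members were higher in all pairs, against 15.1% of all protein-coding genes, and the smallest exact permutation p was 0.50, where 0.25 is the least possible.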
